A study of Mus musculus with 6 samples.

Results

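The basement membrane collagens IV, XV and XVIII and the nidogens were followed as 10 genes, Col4a1, Col4a2, Col4a3, Col4a4, Col4a5, Col4a6, Col15a1, Col18a1, Nid1 and Nid2, among 22915 genes measured on both array designs of the study. They were chosen by name, and their probes were found through the gene identifiers of the authors' table, which holds 9 of them, and for Col4a3 through the transcript accession of its probe. The cells were sorted from mice that carry GFP under the smooth muscle actin (Acta2) promoter, and were negative for CD45, a white blood cell marker, and CD31, an endothelial marker. The wound cells had high GFP (SMA+++) and came from skin wounds 7 days after injury, and the labels call them myofibroblasts. The skin cells had low GFP (SMA+) and came from dermis, and the labels call them fibroblast-like. All animals of both groups carried the reporter, and their age and the number pooled are not given in the sources used here. GFP level and injury differ together between the groups and cannot be told apart. Each group had 3 one-colour Agilent arrays, 2 on design 026655 (replicates 1 and 2) and 1 on design 028005 (called replicate 3 here, since its label has no number).

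Basement membranes are thin sheets of matrix that underlie epithelia and wrap vessels, nerves, muscle and fat cells. Collagen IV chains assemble as trimers into a network, laminins form a second network, and the nidogens and the heparan sulfate proteoglycan perlecan link them. Collagens XV and XVIII sit at the edge of the sheet and carry heparan sulfate or chondroitin sulfate chains, and the C-terminal fragment of collagen XVIII is endostatin, an inhibitor of angiogenesis. The α1 and α2 chains of collagen IV occur in nearly all basement membranes, whereas α3 to α6 are restricted to some tissues, and α5 and α6 are found in the epidermal basement membrane of skin.

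The collagen IV genes lie in the genome as head-to-head pairs, and the start regions of the pairs are shown because the chains are described pair by pair. In RefSeq (GRCm38.p6) the annotated 5′ ends of Col4a2 on the plus strand and Col4a1 on the minus strand overlap by 22 bases, at chr8:11312805-11312826, which hold 72.7% G and C. The starts of Col4a3 on the plus strand and Col4a4 on the minus strand are 71 bases apart, at chr1:82586850-82586920 (69% G and C). Those of Col4a5 and Col4a6 are 1342 bases apart on chromosome X. Both stretches are printed on the plus strand.
Col4a1 and Col4a2, overlap of the 5′ ends: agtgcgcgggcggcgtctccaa
Col4a3 and Col4a4, between the starts: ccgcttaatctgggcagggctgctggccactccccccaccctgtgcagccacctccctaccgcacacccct

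Col18a1 and Nid1 also rose in wound cells, and the 250 bases before their annotated starts are shown on the strand of the gene. RefSeq gives windows for 8 of the 10 genes, and for Col18a1 it gives a distal start and a proximal one. Capitals mark matches, on either strand, to the motifs searched, which were CCAAT, then GGGCGG, then TGANTCA, then GGAATG, then CAGACA, and last the CArG box.
Col18a1 distal start, minus strand, chr10:77166531-77166780: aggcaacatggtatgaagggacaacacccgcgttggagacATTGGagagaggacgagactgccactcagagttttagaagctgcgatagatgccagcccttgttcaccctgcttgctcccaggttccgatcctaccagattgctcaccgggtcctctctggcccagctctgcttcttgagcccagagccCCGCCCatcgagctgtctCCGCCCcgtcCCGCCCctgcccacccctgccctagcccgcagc
Col18a1 proximal start, minus strand, chr10:77113706-77113955: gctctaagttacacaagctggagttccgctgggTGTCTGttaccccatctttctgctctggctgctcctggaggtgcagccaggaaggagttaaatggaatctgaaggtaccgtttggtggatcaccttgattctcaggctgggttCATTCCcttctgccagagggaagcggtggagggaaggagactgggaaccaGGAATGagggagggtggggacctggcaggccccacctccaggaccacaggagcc
Nid1, plus strand, chr13:13437352-13437601: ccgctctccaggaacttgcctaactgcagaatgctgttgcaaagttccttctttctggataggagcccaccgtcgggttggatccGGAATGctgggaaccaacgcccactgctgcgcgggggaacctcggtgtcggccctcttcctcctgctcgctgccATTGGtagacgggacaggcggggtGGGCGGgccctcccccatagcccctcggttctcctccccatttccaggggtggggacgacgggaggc
The distal Col18a1 window held GGGCGG at 3 places and CCAAT at 1, all on the opposite strand, and the proximal one held GGAATG at 2 places and CAGACA at 1. The Nid1 window held CCAAT at 1 place on the opposite strand. It also held GGGCGG at 1 place and GGAATG at 1, both on the strand of the gene. CCAAT occurred in 33.8% of 32851 windows of this length, GGGCGG in 32.7%, GGAATG in 12.6%, CAGACA in 17.1%, TGANTCA in 6.75% and the CArG box in 1.47%. Neither TGANTCA nor the CArG box was in any window of the 8 genes. A match is only a run of letters, and the arrays do not tell which Col18a1 start was used.

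Levels are given as log2 of the processed signal of a gene's brightest probe over the 75th percentile of its array, so that 0 is the 75th percentile and 1 unit is a doubling. Levels of different genes come from different probes and are not set against each other. For all 10 genes the array of design 028005 read higher than those of 026655 in both groups, so differences were taken within each design. Between 64.4% and 72.6% of spots were well above background on the 6 arrays, no spot was saturated (0 on each), and arrays correlated at 0.970 to 0.989 within a group and at 0.901 to 0.923 between groups across genes. Acta2, whose promoter drives the sorted reporter, exceeded its skin level 26.1-fold in wound cells (limma log2 difference 4.70, SE 0.16, adjusted p = 5.19e-05), and checks the labels. Nothing in the labels ties the arrays to separate mice, so a p-value here covers only array-to-array spread, perhaps technical, and the number of arrays limits the precision.

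Of the 10 genes, 9 were well above background on all 6 arrays and were tested, and Col4a3 was not. Col18a1, Nid1, Nid2, Col4a1 and Col4a2 were higher in wound cells, Col4a4 was lower, and Col4a5, Col4a6 and Col15a1 did not pass the threshold (limma with the array design as a term, adjusted p under 0.05 over 16684 genes). Of all genes tested, 34.1% were called, 18.5% as higher and 15.6% as lower in wound cells, against 5 higher and 1 lower of the 9. Their median log2 difference was 0.80, and that of all genes 0.04. With both designs pooled, wound and skin arrays did not overlap for 5 of the 9, against 17.0% of all genes. Any offset between the designs enters both values, and Col4a4, whose groups were apart within each design, counts as overlapping. Fitted probe by probe, 16 of 18 probes of these genes were tested, and 7 were higher, 3 lower and 6 not past the threshold, where 32.1% of all probes were called. Of the 3 called lower, 1 entered the test only through the skin arrays. Differences between arrays of the same replicate number are given as values only, since the numbers are not known to pair the samples.

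**Figure D1:**
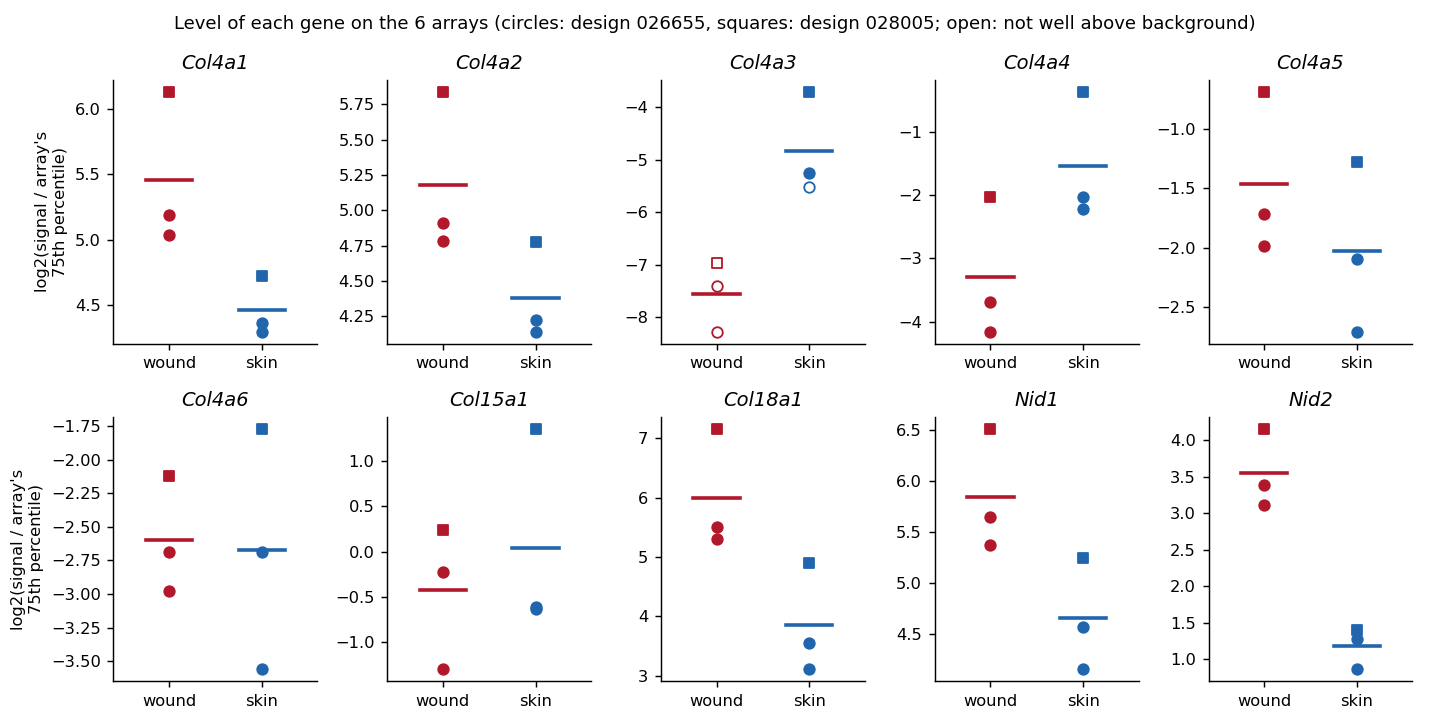
Level of each of the 10 genes on the 3 wound and 3 skin arrays (y axis, log2 of the signal over the array's 75th percentile, a separate scale for each gene); bars are group means, circles are design 026655, squares design 028005, and open symbols were not well above background. Wound arrays of Col4a1, Col4a2, Col18a1, Nid1 and Nid2 lie above all skin arrays, and Col4a3 was not well above background on any wound array.

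Collagen IV α1, encoded by Col4a1, forms with α2 the common network trimer. Its level was 5.04, 5.19 and 6.13 in wound replicates 1, 2 and 3, against 4.29, 4.36 and 4.72 in skin replicates 1, 2 and 3. All 3 wound arrays were above all 3 skin arrays. The difference was 1.99-fold (log2 1.00, SE 0.18, 95% interval 0.55 to 1.44, adjusted p = 0.00813 by limma). Col4a2, which encodes the α2 chain, stood at 4.78, 4.91 and 5.84 in wound replicates 1, 2 and 3, against 4.14, 4.22 and 4.78 in skin replicates 1, 2 and 3. Here the lowest wound array was close to the highest skin array, which was on the other design, and within each design the groups were apart. The difference was 1.74-fold (log2 0.80, SE 0.16, 95% interval 0.41 to 1.18, adjusted p = 0.0109 by limma).

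Both chains of this head-to-head pair thus rose. Like-numbered arrays differed by 0.74, 0.83 and 1.41 for Col4a1 and by 0.64, 0.69 and 1.07 for Col4a2 in replicates 1, 2 and 3. The change of Col4a1 exceeded that of Col4a2 by 0.12 on design 026655 and by 0.35 on 028005, which gave 0.20 with the design as a term (SE 0.06). An exact two-sided permutation of the group labels within each design gave p = 0.167, the smallest that its 12 assignments allow. For both chains the arrays of design 028005 differed most. Without them, on design 026655 alone, the log2 difference was 0.79 for Col4a1 (adjusted p = 0.0314 by limma) and 0.66 for Col4a2, which then missed the threshold (adjusted p = 0.0516 by limma).

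Col4a3 and Col4a4, which encode the α3 and α4 chains of specialised basement membranes such as those of the kidney glomerulus, were dim. Col4a4 stood at -3.68, -4.15 and -2.02 in wound replicates 1, 2 and 3, against -2.03, -2.22 and -0.37 in skin replicates 1, 2 and 3. Different probes were used on the 2 designs, so levels are compared within each, and each wound array was below the skin arrays of its own design. Wound cells had 3.36-fold less Col4a4 signal (log2 difference -1.75, SE 0.18, adjusted p = 0.000815 by limma). With the brightest probe common to both, A_55_P2143832, the log2 difference was -1.15 (adjusted p = 0.0205 by limma), and the mean of its 3 probes, of which 1 was well above background on 1 array of each group, gave -1.02 (adjusted p = 0.00475 by limma). Normexp background correction, which adds an offset to dim signals, gave -1.08 (adjusted p = 0.000295 by limma).

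The single Col4a3 probe was not well above background on any wound array and was so on 2 of 3 skin arrays. Its signal as read was -8.27, -7.40 and -6.96 in wound replicates 1, 2 and 3, against -5.25, -5.53 and -3.70 in skin replicates 1, 2 and 3. Skin replicate 2 was the skin array that missed the detection mark. The arrays therefore give no size for a difference in Col4a3.

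Col4a5, which encodes the α5 chain, had levels of -1.99, -1.72 and -0.68 in wound replicates 1, 2 and 3, against -2.10, -2.71 and -1.28 in skin replicates 1, 2 and 3. Each wound array was above the skin array of its number, and the groups overlapped. The log2 difference was 0.56 (SE 0.21, 95% interval 0.07 to 1.06 before adjustment for many genes, adjusted p = 0.0808 by limma). It did not pass the threshold, and its interval reaches to about the size seen for Col4a1.

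Col4a6, the head-to-head neighbour of Col4a5, gave values that depended on the probe. By its brightest probe, A_52_P447196, the level was -2.69, -2.98 and -2.12 in wound replicates 1, 2 and 3, against -2.69, -3.56 and -1.77 in skin replicates 1, 2 and 3. The groups overlapped throughout, with a log2 difference of 0.08 (SE 0.28, 95% interval -0.60 to 0.75, adjusted p = 0.853 by limma). The other probe, A_52_P516409, stood at -8.11, -7.15 and -3.90 in wound replicates 1, 2 and 3, against -3.71, -4.46 and -2.77 in skin replicates 1, 2 and 3. It was well above background on 1 wound array and all 3 skin arrays. It entered the probe-by-probe test only through the skin arrays, in which 15.2% of all probes were called lower, and its call as lower rests on wound signals read below background, so no size is given. The mean of both probes gave -1.33 (adjusted p = 0.0153) and the authors' deposited table, which merges both probes, gave -1.39 (adjusted p = 0.0129, both by limma), and these values take in the same dim signals. Both probes carry the same transcript accession, and which part of the transcript each one reads was not tested.

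**Figure D2:**
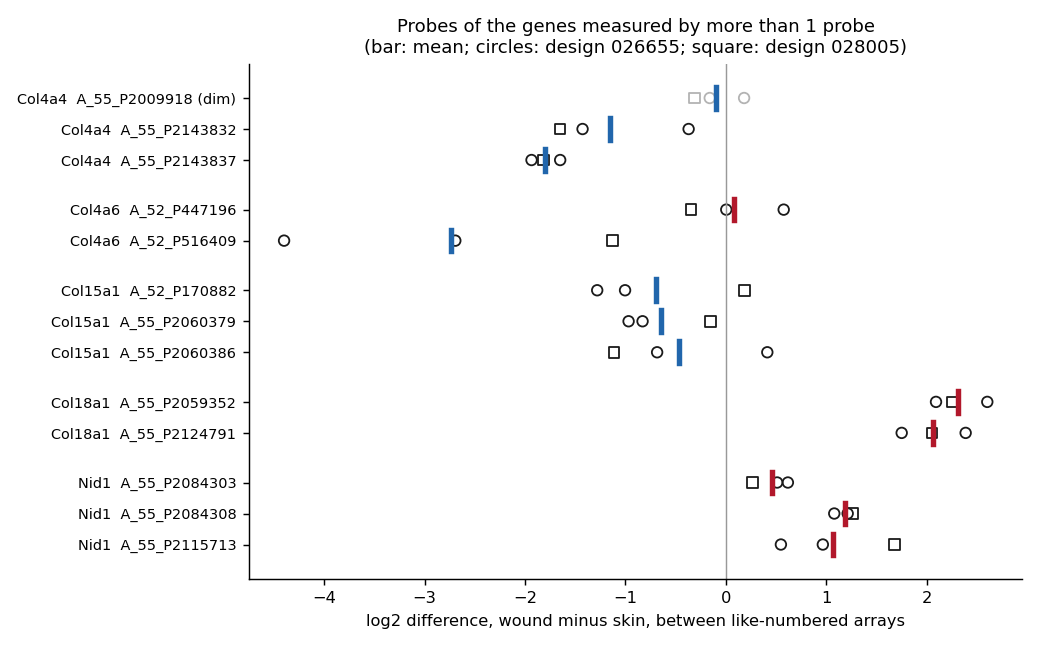
Log2 difference, wound minus skin, between like-numbered arrays (x axis) for every probe of the 5 genes measured by more than 1 probe (rows); circles are design 026655, squares 028005, bars the mean. One Col4a6 probe has a mean of 0.08, and the other lies below 0 with wound signals that were well above background on 1 array, so that its size is not measured, while both Col18a1 probes and all 3 Nid1 probes lie above 0.

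Collagen XVIII was among the genes that rose most here. Col18a1 stood at 5.31, 5.50 and 7.16 in wound replicates 1, 2 and 3, against 3.56, 3.11 and 4.91 in skin replicates 1, 2 and 3. Each wound array was above the skin arrays of its own design, and on each of its 2 probes alone the groups did not overlap. The difference was 4.38-fold (log2 2.13, SE 0.18, 95% interval 1.70 to 2.56, adjusted p = 0.000388 by limma). The brightest of its 2 probes was not the same on both designs. These probes gave 2.32 and 2.06 when fitted apart (adjusted p = 0.000212 and 0.000406 by limma over 22650 probes). Under 19 alternatives the log2 difference lay between 2.02 and 2.32 and passed the threshold in each.

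Col15a1, which encodes the related collagen XV of the outer basement membrane zone, did not follow. Its level was -1.29, -0.22 and 0.24 in wound replicates 1, 2 and 3, against -0.61, -0.64 and 1.35 in skin replicates 1, 2 and 3. The groups overlapped. The log2 difference was -0.46 (SE 0.34, 95% interval -1.28 to 0.35, adjusted p = 0.335 by limma). It passed the threshold as lower with the mean of its 3 probes (log2 -0.60, adjusted p = 0.0413), in the authors' deposited table (-0.66, adjusted p = 0.0325) and without wound replicate 2 (-0.86, adjusted p = 0.0244, all by limma). By its brightest probe it was smaller and did not pass on design 026655 alone (-0.14, adjusted p = 0.812 by limma). This is also the value without either replicate 3. Without wound replicate 1 it was -0.25 and did not pass either (adjusted p = 0.671 by limma). Fitted apart, the other probes gave -0.70 and -0.65 (adjusted p = 0.114 and 0.0597 by limma). On design 026655 these other probes differed by -1.14 and -0.90, and on 028005 by 0.19 and -0.15. The brightest probe gave -0.14 and -1.11, so which design showed the larger fall depended on the probe. By the brightest probes, the change of Col18a1 exceeded that of Col15a1 by 2.21 on design 026655 and by 3.37 on 028005. With the design as a term this excess was 2.59 (SE 0.45), with an exact two-sided permutation p = 0.167, the smallest allowed.

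Nidogen 1, the product of Nid1, binds laminin γ1 and collagen IV and bridges their networks. Its level was 5.37, 5.65 and 6.51 in wound replicates 1, 2 and 3, against 4.16, 4.57 and 5.25 in skin replicates 1, 2 and 3. The lowest wound array was just above the highest skin array. In wound cells Nid1 was thus 2.27-fold up (log2 difference 1.18, SE 0.18, 95% interval 0.75 to 1.62, adjusted p = 0.00361 by limma), and like-numbered arrays differed by 1.21, 1.08 and 1.26. Of its 2 dimmer probes, A_55_P2115713 gave 1.06 (adjusted p = 0.0253) and A_55_P2084303 gave 0.46 and did not pass (adjusted p = 0.143, both by limma).

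Nidogen 2, a second bridging protein with a similar domain plan, differed most of the 9. Nid2 stood at 3.11, 3.39 and 4.15 in wound replicates 1, 2 and 3, against 0.86, 1.27 and 1.39 in skin replicates 1, 2 and 3. A wide gap separated the groups on both designs. The difference was 5.20-fold (log2 2.38, SE 0.21, 95% interval 1.87 to 2.88, adjusted p = 0.00045 by limma). It was larger than that of Nid1 by 1.04 on design 026655 and by 1.50 on 028005, or by 1.19 with the design as a term (SE 0.13; exact two-sided permutation p = 0.167, the smallest allowed). With the other genes compared in this way, adjustment over the 3 comparisons left each p at 0.167, so none passed and none could.

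**Figure D3:**
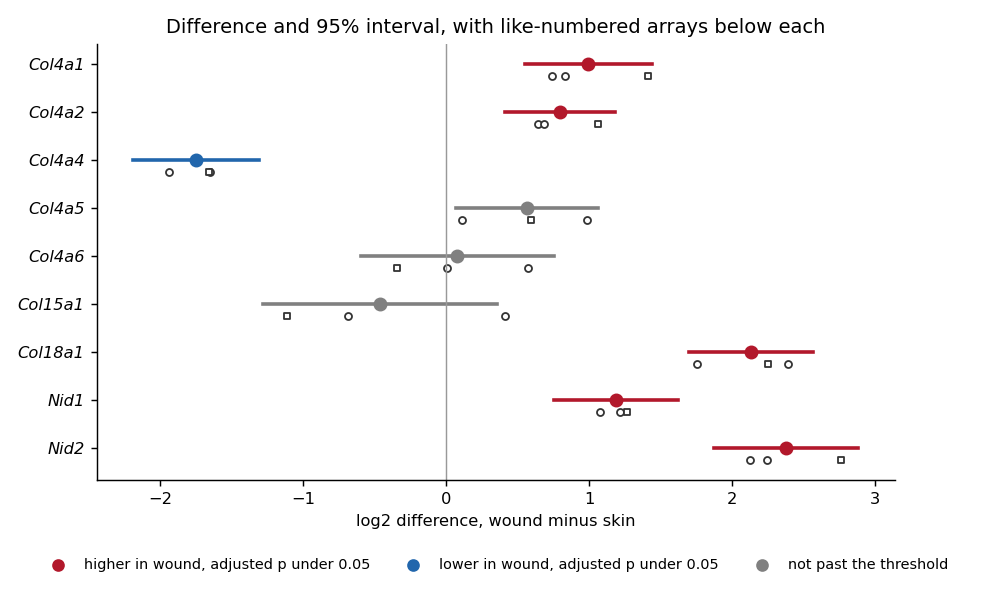
Log2 difference, wound minus skin (x axis), of the 9 genes tested, with the 95% interval of the limma fit as a line and the differences between like-numbered arrays below it (circles design 026655, square 028005). The intervals of Nid2 and Col18a1 begin at 1.87 and 1.70, those of Nid1, Col4a1 and Col4a2 at 0.75, 0.55 and 0.41, and that of Col4a4 ends at -1.31.

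Likeness of profile was measured as the Euclidean distance, over the 6 arrays, between log2 values centred within each design, which describes these arrays only and mostly follows the size of the difference. From Col4a1, its partner Col4a2 was at a distance of 0.28 and ranked 36 of 16683 genes, and seen from Col4a2 the partner ranked 143. Col4a5 and Col4a6 were 0.84 apart, and Col4a6 ranked 5356 for Col4a5 while Col4a5 ranked 4557 for Col4a6. Nid1 ranked 947 for Nid2, Nid2 ranked 7324 for Nid1, and the ranks of Col15a1 and Col18a1 for each other were 13338 and 15677. The genes nearest to Col4a1 were Zbtb34, Padi1 and Siglecg at distances of 0.15 to 0.18, and those nearest to Col4a2 were Mgat4a, Sec23a and Neo1 at 0.08 to 0.10. Ccn3, H2bc8 and Zcchc12 were nearest to Col18a1, Cask, Ankrd44 and Rnf144a to Nid1, and Ano1, Dmp1 and S1pr3 to Nid2. For Col15a1 the nearest were a gene known only by its identifier, Fam83e and 2010204K13Rik. Those nearest to Col4a4 were Ccl27a, Cables1 and Sdc4, a syndecan, at distances of 0.13 to 0.20, and those nearest to Col4a5 were Olfr704, Cfap70 and Espnl. For Col4a6 they were Sowaha, A830052D11Rik and another gene with no symbol.

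Other genes of the basement membrane moved in both directions. Laminin chains, the partners of nidogen in the sheet, had 10 members on the arrays, all tested, of which 5 were higher, 3 lower and 2 not past the threshold (median log2 0.39, against 0.04 for all genes). Of all genes 18.5% were higher and 15.6% lower, against which this count and those of the lists that follow are to be read. Lama5 rose (log2 1.23, SE 0.17), and Lamc3 and Lama2 had the largest falls of the list (log2 -4.87 and -2.37, SE 0.33 and 0.20). Lamc1, named after its value was seen because its product binds nidogen, rose by 0.70 (adjusted p = 0.0144 by limma).

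Of 20 other basement membrane components tested, 9 were higher, 7 lower and 4 not past the threshold, with a median of 0.11. Tinagl1, a matricellular protein, rose 22.2-fold, and Bmper, a secreted regulator of BMP signalling, 10.3-fold. Netrin 1, Ntn1, fell (log2 -3.55, SE 0.26). Smoc1, a calcium-binding matrix protein, was well above background on 2 of 3 wound arrays. Its fitted difference of -5.81 (SE 0.53) thus rests in part on a wound signal not well above background. Of the 16 called, 2 entered the test only through the skin arrays, Smoc1 and Col17a1, and both were called lower. Perlecan, Hspg2, named after its value was seen, rose 2.43-fold (adjusted p = 0.0281 by limma).

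Genes that fold, modify, export or crosslink collagen, a list that serves fibrillar collagens as well as collagen IV, were higher for 15 of 21 tested, with 0 lower and 6 not past the threshold (median 0.99). Plod2, a lysyl hydroxylase, and P4ha3, a prolyl hydroxylase subunit, led with log2 differences of 3.26 and 2.56 (SE 0.30 and 0.28). Pxdn and Loxl2, named after their values were seen, encode peroxidasin, which forms the sulfilimine crosslinks of collagen IV, and a lysyl oxidase relative that also crosslinks it, and rose 4.64-fold and 3.61-fold (adjusted p = 0.000198 and 0.000412 by limma).

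Receptors of basement membrane were higher for 9 of 18 tested, lower for 3 and not past the threshold for 6 (median 0.35), so that the share lower was near the 15.6% of all genes. Itga1, the α chain of a collagen IV-binding integrin, and Itga7, of a laminin-binding one, rose 9.82-fold and 9.64-fold. Itgb4, a hemidesmosome integrin chain, fell by 2.48 and the syndecan Sdc4 fell by 1.69 on the log2 scale. Proteases that cut these proteins were higher for 11 of 17 tested, lower for 0 and not past the threshold for 6 (median 1.25). The wound signal exceeded that of skin by at least 204-fold for Mmp10 and at least 55.7-fold for Mmp9, a gelatinase that cuts collagen IV (adjusted p = 6.48e-05 and 5.19e-05 by limma), since neither was well above background on a skin array. Of the 11 proteases called higher, 4 entered the test only through the wound arrays, these among them, and their p-values rest on skin signals read as given. Ctsl, a cathepsin that can release endostatin, and Mmp2, the other gelatinase, both named after their values were seen, had log2 differences of 0.02 and 0.11 (adjusted p = 0.935 and 0.699 by limma).

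**Figure D4:**
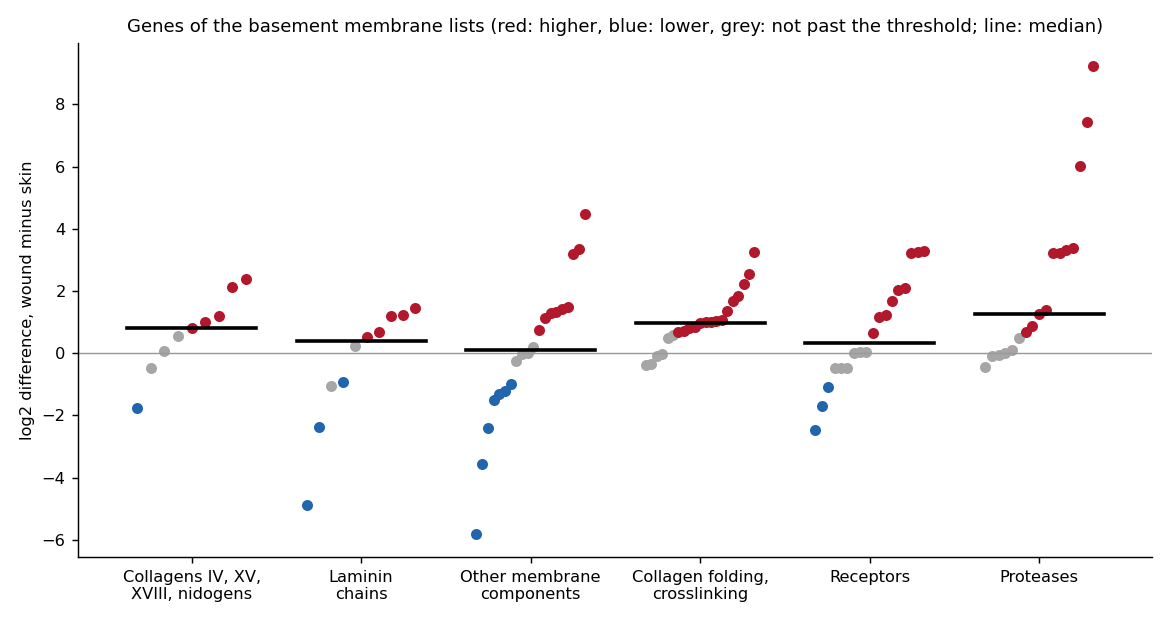
Log2 difference, wound minus skin (y axis), of each gene tested in the collagen and nidogen set and in 5 lists of basement membrane genes; red points were called higher, blue lower and grey not past the threshold, and lines are medians. The fitted values of Mmp10, Mmp9 and Mmp12 are drawn as read, although their skin signals were not well above background; medians run from 0.11 to 1.25.

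Cells other than fibroblasts make these proteins, and the arrays measured sorted cells in bulk, so fewer cells of a type and less RNA per cell cannot be told apart. Mural cell markers (pericytes and vascular smooth muscle, which basement membrane wraps) were higher for 8 of 11 and lower for 0. The 3 not past the threshold were Pdgfrb, Mcam and Cspg4, all well above background on all 6 arrays. Their log2 differences were 0.25, -0.005 and -0.17 (adjusted p = 0.265, 0.990 and 0.474 by limma). How far the sort on the smooth muscle actin reporter sets this count was not tested. Their summed level, in units of the array's 75th percentile, was 94.7 to 246 on wound arrays and 33.8 to 67.4 on skin arrays. Endothelial markers were higher for 5 of 10 tested and lower for 0. Their summed levels were 14.3, 14.0 and 30.6 in wound replicates 1, 2 and 3. Those of skin replicates 1, 2 and 3 were 4.82, 4.67 and 19.1. Replicate 3 was on design 028005, which read higher, and within each design the wound sums were above the skin sums. A sum adds signals of different probes, so the brightest genes weigh most in it. Esam, Flt1, Emcn, Egfl7 and Tek were the 5 that rose, by 12.7-fold, 11.7-fold, 5.99-fold, 3.21-fold and 2.12-fold. Emcn was well above background on 1 skin array and entered the test only through the wound arrays, so its fold rests in part on dim skin signals. Of the 5 not past the threshold, Kdr, Vwf and Cldn5 had log2 differences of 0.16, -0.10 and -0.71 (adjusted p = 0.599, 0.891 and 0.210 by limma). Pecam1, which encodes the CD31 used in the sort, and Cdh5 were well above background on all 6 arrays and missed the threshold (log2 difference 0.37 and 0.45, adjusted p = 0.152 and 0.277 by limma). The part of both cell types in the rise of Col4a1, Col4a2, Col18a1, Nid1 and Nid2 was not tested.

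Keratinocyte markers were lower for 9 of 10 tested and higher for 0. Their summed level was 4.39 to 10.4 on wound arrays and 18.2 to 39.9 on skin arrays. Of the 9, 5 entered the test only through the skin arrays, where they are high, so their calls support no more than that they were dim on wound arrays. Krt5 and Krt14, the keratins of the basal layer, had 20.1-fold and 4.75-fold less signal in wound than in skin cells (adjusted p = 0.000134 and 0.00467 by limma) and were well above background on all arrays. Cdh1 and Krt1 were not well above background on any wound array and were at least 10.4-fold and 22.8-fold lower there. Trp63 was well above background on all 6 arrays and missed the threshold (log2 difference -0.27, adjusted p = 0.374 by limma). Dsg3 was not well above background on any array of either group. Schwann cell markers were lower for 4 of 7 tested and higher for 1. Of the 4, Cdh19 entered the test only through the skin arrays and was not well above background on any wound array. Their summed levels were 11.1 to 22.2 on wound and 9.90 to 17.1 on skin arrays. Within each design these sums were higher on wound arrays, unlike most of the calls. Ncam1, the 1 called higher (log2 difference 0.57), was the brightest of the 7 and weighs most in the sum. The single marker genes named here were chosen after their values were seen, and the part of these cells in the Col4a4, Col4a3 and Col4a6 values was not tested. Of the fibroblast markers 1 of 9 was higher and 1 lower, with summed levels of 1067 to 3456 on wound and 1207 to 4150 on skin arrays. White blood cell markers had 0 of 8 higher and 1 lower (23.1 to 104 on wound, 23.4 to 119 on skin arrays). Adipocyte markers had 1 of 5 higher and 1 lower (13.8 to 33.2 and 6.31 to 16.4). Skeletal muscle markers had 2 of 4 higher and 0 lower (2.24 to 9.22 and 0.49 to 2.15). The 2 were Acta1 (log2 difference 3.68), the brightest of the 4 in wound cells, and Myh2. Myh2 was well above background on 1 skin array and entered the test only through the wound arrays. Tnnt3 and Myl1 did not pass the threshold (log2 difference -0.11 and -0.25). All ranges of sums pool both designs. Within each design the adipocyte and skeletal muscle sums were higher on wound arrays. Fibroblast and white blood cell sums overlapped on design 026655 and were lower in wound cells on 028005.

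**Figure D5:**
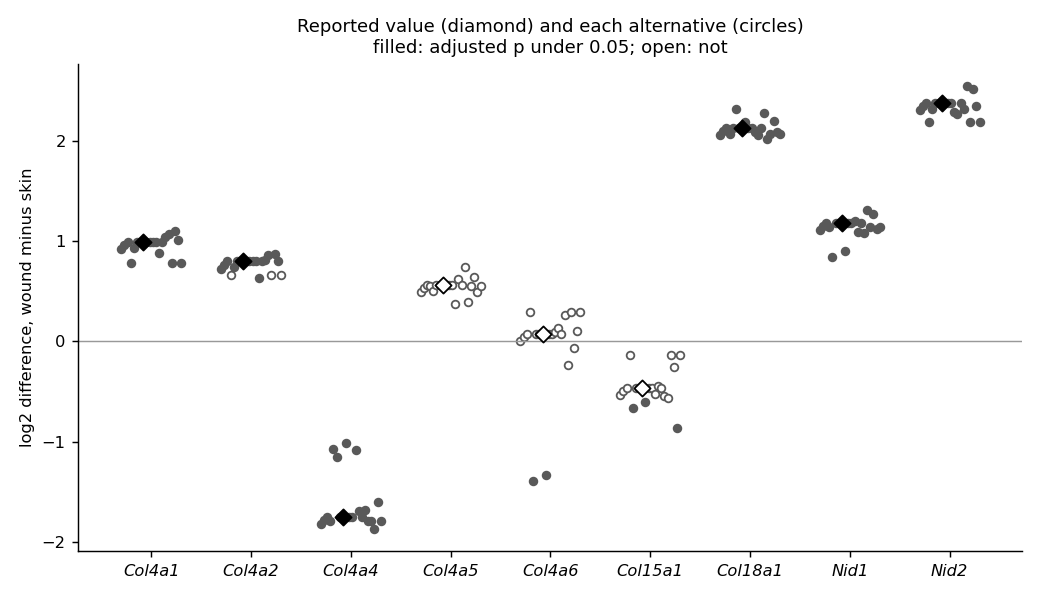
Log2 difference, wound minus skin (y axis), of the 9 genes tested, as reported (diamond) and under each of 19 alternatives (circles); filled symbols have an adjusted p under 0.05. Col18a1, Nid2 and Col4a4 are filled throughout, Col4a5 is open throughout, and the 2 filled Col4a6 values are those that average its 2 probes.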

How the data were processed

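The members and gene lists were chosen with earlier results of these data known. The deposited intensity values come, per the file headers, from Agilent Feature Extraction 10.7.3.1 (design files on mm9). The processed signal is background-subtracted and not scaled between arrays. The authors' deposited table of log2 gene values was made with GeneSpring 14.5, per the series' design text, which also names a human array, although all samples are labelled mouse. Its base is not stated. Set against the means of all probes, its wound minus skin differences had slopes of 1.00, 1.00 and 0.984 in replicates 1, 2 and 3. Its 2 columns of design 028005 sum to a constant over genes, so it is centred within that design and shows differences only. All of its sample columns were matched to samples.

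Control and outlier spots were left out, and spots of a probe were averaged. Each array's 75th percentile was subtracted on the log2 scale. It was first taken over spots and then changed to averaged probes after both results had been seen (6 of the 9 genes were called either way, and 5591 of all genes over spots, against 5687). A gene was read by its brightest probe in each design, and this probe coincided between designs for 97.7% of the genes tested. Of 22915 genes, 16684 were well above background on all 3 arrays of a group and were tested with limma 3.58.1 in R 4.3.3 (lmFit, eBayes, Benjamini-Hochberg), with the array design as a term. Each design was on 1 slide with 1 scan time, so that term also covers both. There were 3 residual degrees of freedom, and 6.25 after moderation. The fit was tested on simulated data. The scanner files hold no mean signal, so normexp (offset 50) used the median signal in place of the mean that had been planned. All 10 members are named, and in each list the 2 largest rises and falls among calls, except 1 gene that is not reported here. Figures were drawn with matplotlib 3.10.9. Alternatives were other scalings, filters, probe rules, the authors' table, a replicate block and leaving out each array. The probe-by-probe fits, the 3 comparisons between members and the percentile over spots were added after seeing the data.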

Additional observations from a re-analysis of the deposited data

Results flagged for a closer look

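By its brightest probe, the Col4a6 difference had opposite signs on the 2 array designs, although the groups overlapped on 026655. On design 026655 like-numbered arrays differed by 0.0037 and 0.58 (log2), and on 028005 the difference was -0.35. The difference on 028005 minus that on 026655 was -0.64, and the test of this difference across all genes did not pass the threshold (unadjusted p = 0.31, adjusted p = 0.903 by limma). Design 028005 holds a single wound and a single skin array. The cause was not tested.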

How the results depend on the processing

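Col18a1, Nid2 and Col4a4 kept their direction and call under all 19 alternatives, and Col4a5 stayed short of the threshold under all 19. Of the 9 genes tested, 6 were called. The count was 3 with no array design term, which also left 1745 of all genes called, against 5687, and ended the calls of Col4a1 (adjusted p = 0.508), Col4a2 (adjusted p = 0.725) and Nid1 (adjusted p = 0.326, all by limma). Averaging a gene's probes gave 8, as did the authors' deposited table, which is made alike and is no independent setting. At an adjusted p under 0.01, 5 of the 9 and 3186 of all genes were called, and Col4a2 was not. Leaving out each array in turn gave 5 to 7 of the 9 and 3748 to 5017 of all genes, the lowest without skin replicate 1. Without wound replicate 3 or skin replicate 3, which leaves design 026655 to decide, Col4a2 lost its call (adjusted p = 0.0516 by limma), and without wound replicate 2 Col15a1 gained one. The sign of Col4a6 turned when probes were averaged (-1.33) and with the authors' deposited values (-1.39), and leaving out each array gave -0.23 to 0.29, with -0.07 without wound replicate 1 and -0.23 without skin replicate 2. The replicate block gave 6 of the 9 and 5590 of all genes, and changed no call of the 9. Only design 026655 has numbered arrays, 2 pairs, so the numbers were not taken to pair the samples, and differences between like-numbered arrays are shown as values only. Same-numbered arrays deviated from their group means with a correlation of 0.15 across genes. The group by array design term called 0 of the 9, whose lowest unadjusted p was 0.11, and 0 of all genes by limma, of which 1195 had an unadjusted p under 0.05. That count for the 9 was 0 under each of 8 alternatives. Signal over background limits Col4a3, Col4a4 and the dimmer Col4a6 probe. The causes of these changes were not tested.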
